A study of Mus musculus with 4 samples.

Results

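Elastic fibres give tissues their recoil, and the genes of this set encode the proteins that build them: elastin (Eln), fibrillin-2 (Fbn2), the fibulins Fbln1, Fbln2 and Fbln5, the interface protein Emilin1, and the microfibril-associated proteins Mfap2, Mfap4 and Mfap5. They were taken as every probe set that the array annotation assigns to exactly 1 of 10 gene symbols. This gave 14 probe sets for 9 genes, out of 45037 probe sets and 17097 named genes on the array. No probe set carried the name Fbn1, so fibrillin-1 was not analysed here. A probe set that names Eln together with another gene was left out.

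The 4 samples were whole inguinal mammary glands of mice 10 days after birth, each on its own Affymetrix 3′ array. Arrays KO1 and KO2 came from Mt2-mmp(-/-) mice, which lack the membrane-anchored matrix metalloproteinase MT2-MMP (gene symbol Mmp15) in all tissues. Arrays WT1 and WT2 came from Mt2-mmp(+/+) littermates. Both genotypes were congenic on C57BL/6J. Arrays of a genotype are labelled biological replicates, but the labels used here do not say whether an array holds 1 mouse or a pool, nor the sex of the mice. At this age the gland is mostly fat pad and stroma around a rudimentary ductal tree, so each value is an average over fibroblasts, fat cells, epithelium, vessels and other cells, and fewer cells of a type cannot be told apart from less RNA per cell.

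An elastic fibre has a core of crosslinked elastin and a mantle of microfibrils. Fibrillins polymerise into the microfibrils. Small microfibril-associated glycoproteins and emilin bind to them, and fibulins help to place tropoelastin, the soluble form of elastin, on this scaffold before lysyl oxidases crosslink it. In connective tissue these proteins are made mainly by fibroblasts and smooth muscle cells, mostly during growth.

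Across the array, correlations between samples ran from 0.995 to 0.997 over probe sets. The medians of the 23 nonspecific controls were 3.26 to 3.28, and 90% of these controls lay under 4.40 on the log2 scale, which is used here as the limit below which a probe set is called dim. The highest control of each array was at 6.78 to 6.96, so a probe set above the limit can still lie within the range of the controls. Markers of the labelled tissue were above the dim limit: all 7 luminal epithelial markers, all 6 basal markers and all 4 measured white adipocyte markers. Mmp15 itself had no named probe set here, which left the genotype labels unchecked on the deleted gene. The arrays of both genotypes differed strongly in hair follicle keratins. The summed linear signal of 8 measured hair follicle and epidermis markers (of 9 listed) was 4814 in KO1 and 274 in KO2, against 280 in WT1 and 4049 in WT2. KO1 and WT2 are therefore given as the arrays high in hair follicle markers wherever that split touches a result. Within the list Krt1 and Lor were dim in all arrays and Krt10 stayed between 7.16 and 7.22.

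No probe set of the elastic fibre genes passed the threshold between knockout and wild type. With limma, 0 of 14 had an adjusted p under 0.05, where 0.00444% of all probe sets did, and 1 of 14 had an unadjusted p under 0.05, where 6.65% of all did. The lowest adjusted p was 0.746, for Mfap5. The log2 fold changes, knockout over wild type, were small and mostly on one side: 12 of 14 probe sets lay above 0, where 49.3% of all probe sets did. Taking each gene at its brightest probe set, 8 of 9 genes lay above 0, against 48.8% of all genes, with a median of 0.14 against -0.0022 over all genes. Genes of one set share cells and arrays, so these counts describe the set and do not test it. For a single probe set on this array the 95% interval reached, at the median, 0.203 to either side of the log2 fold change.

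**Figure D1:**
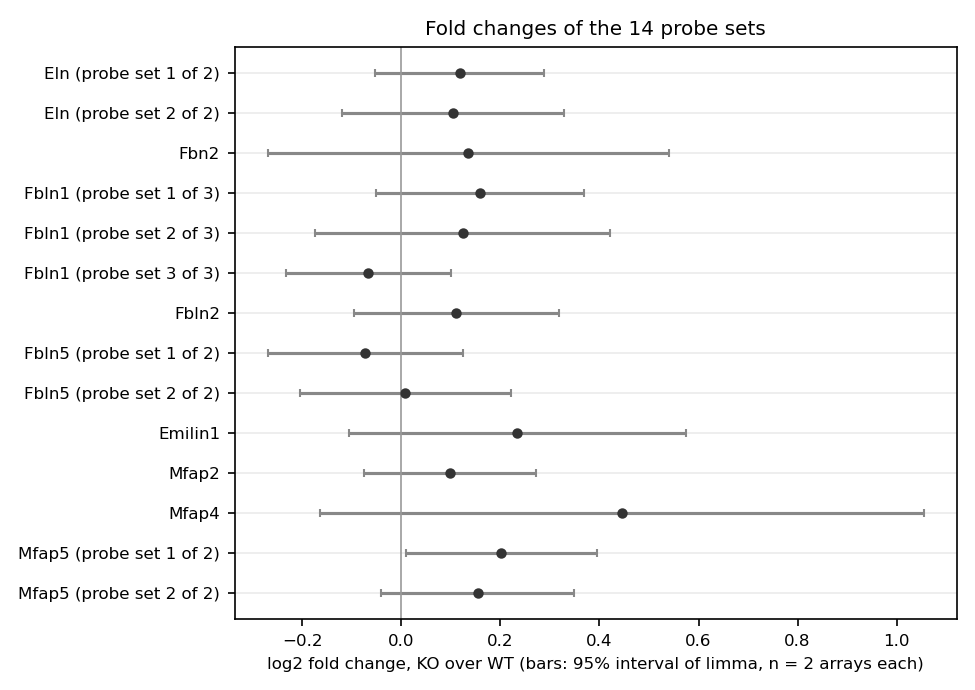
Log2 fold changes of the 14 probe sets, knockout over wild type, with the 95% interval from limma (2 arrays per genotype). Points run from -0.07 for Fbln5 to 0.45 for Mfap4, and 13 of the 14 intervals include 0, the exception being the brighter probe set of Mfap5 (0.0094 to 0.39), which did not pass after adjustment over all probe sets.

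Elastin itself had little difference between genotypes. Eln encodes tropoelastin, which makes up the core of the fibre. Its brighter probe set (1420855_PM_at) had log2 values of 10.89 in KO1 and 10.83 in KO2, against 10.75 in WT1 and 10.73 in WT2. Both knockout arrays lay above both wild-type arrays, by a margin narrower than 0.1. The log2 fold change was 0.12 (SE 0.068, limma adjusted p = 0.801), a fold of 1.09, with a 95% interval of -0.05 to 0.29. The second Eln probe set (1420854_PM_at) had 7.70 in KO1 and 7.80 in KO2, against 7.56 in WT1 and 7.73 in WT2. Here WT2 lay above KO1, so the genotypes overlapped, while the log2 fold change of 0.10 (SE 0.089, limma adjusted p = 0.868) was close to that of the first. The 2 probe sets thus had fold changes of like size but ordered the wild-type arrays differently. The value of the second rested on the wild-type array used, being 0.02 without WT1 and 0.19 without WT2.

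Fibrillin-2 varied more within the wild type than between genotypes. Fbn2 encodes the fibrillin that is most prominent in developing tissue. Its log2 values were 8.27 in KO1 and 8.46 in KO2, against 8.46 in WT1 and 8.01 in WT2. KO2 and WT1 were level and WT2 was the lowest, so the genotypes overlapped. The gap of 0.447 between the wild-type arrays was matched or exceeded by only 2.20% of all probe sets, whereas the log2 fold change was 0.14 (SE 0.161, limma adjusted p = 0.922). It was 0.36 without WT1 and -0.09, on the other side of 0, without WT2.

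The small microfibril-associated glycoproteins gave the most regular pattern. Mfap5 and Mfap2 encode MAGP-2 and MAGP-1, which bind fibrillins along the microfibril. The brighter Mfap5 probe set (1418454_PM_at) had log2 values of 11.52 in KO1 and 11.63 in KO2, against 11.41 in WT1 and 11.33 in WT2. The second (1449082_PM_at) had 10.34 in KO1 and 10.46 in KO2, against 10.28 in WT1 and 10.21 in WT2. Both probe sets put the 4 arrays in the same order, with the knockouts above the wild types. Their log2 fold changes were 0.20 (SE 0.077, limma adjusted p = 0.746) and 0.15 (SE 0.078, limma adjusted p = 0.785). Mfap2 had 10.02 in KO1 and 10.09 in KO2, against 9.96 in both wild-type arrays, which differed by 0.0019. Its log2 fold change was 0.10 (SE 0.069, limma adjusted p = 0.834). Both knockout arrays were again above both wild types, though the knockout pair differed by 0.077, close to the distance between the genotypes.

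Mfap4 had the largest fold change of the set and also the largest spread. Mfap4 encodes a fibrinogen-like protein that binds elastin and microfibrils. Its log2 values were 9.18 in KO1 and 9.48 in KO2, against 9.24 in WT1 and 8.53 in WT2. WT1 lay between the knockouts, so the genotypes overlapped, and WT2 stood apart below the other arrays. The wild-type gap of 0.711 was reached by 0.722% of all probe sets. The log2 fold change was 0.45 (SE 0.243, limma adjusted p = 0.797), a fold of 1.36, with a 95% interval from -0.16 to 1.06. It was 0.09 without WT2 and 0.80 without WT1, so the size of this difference depended on which wild-type array was used.

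Emilin1 resembled Mfap4 in the order of its arrays. Emilin1 encodes a glycoprotein at the interface of elastin and microfibrils. Its log2 values were 7.28 in KO1 and 7.51 in KO2, against 7.32 in WT1 and 7.00 in WT2. WT1 again lay between the knockouts and WT2 below all others. The log2 fold change was 0.23 (SE 0.136, limma adjusted p = 0.801). It was 0.08 without WT2 and 0.39 without WT1.

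**Figure D2:**
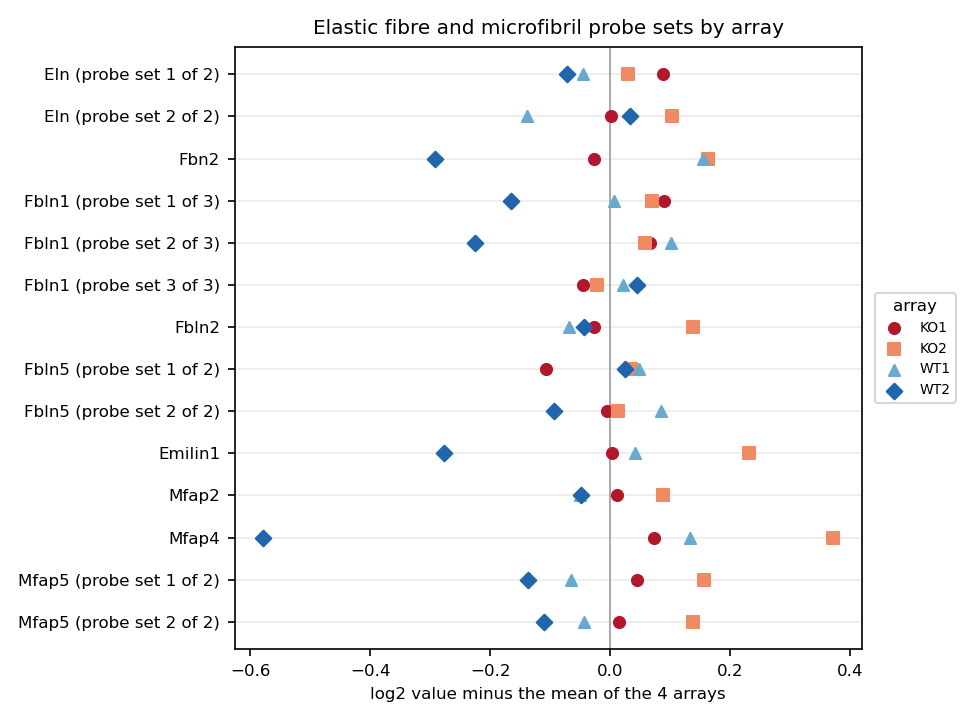
Log2 value of each of the 14 probe sets in each array, as the difference from the mean of the 4 arrays of that probe set; probe sets of a gene are numbered from the brightest. WT2 is the lowest array in 9 of the 14, most clearly for Mfap4, and KO2 is the highest in most microfibril genes.

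The fibulins did not move as a family. Fbln1 encodes fibulin-1, found in basement membranes and in the elastin core. The brightest of its probe sets (1451119_PM_a_at) had log2 values of 7.50 in KO1 and 7.48 in KO2, against 7.42 in WT1 and 7.24 in WT2, which did not overlap. Its log2 fold change was 0.16 (SE 0.084, limma adjusted p = 0.790). The second (1422540_PM_at) had 6.54 in KO1 and 6.53 in KO2, against 6.57 in WT1 and 6.25 in WT2, so that WT1 was the highest and only WT2 was low. Its log2 fold change was 0.12 (SE 0.119, limma adjusted p = 0.890), with 0.29 without WT1 and -0.04 without WT2. The third and dimmest (1439688_PM_at), at 4.92 to 5.01, had the reverse order, with both knockouts below both wild types and a log2 fold change of -0.07 (SE 0.066, limma adjusted p = 0.896). The probe sets of Fbln1 therefore do not give 1 direction.

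Fbln5 was the single gene of the set below 0 at its brightest probe set. Fbln5 encodes fibulin-5, which binds tropoelastin and integrins and is needed for elastic fibre assembly in mice. Its log2 values were 10.13 in KO1 and 10.27 in KO2, against 10.29 in WT1 and 10.26 in WT2. KO2 lay between the wild types and only KO1 was lower. The log2 fold change was -0.07 (SE 0.079, limma adjusted p = 0.906), and -0.0010 without KO1. Its second probe set (1446377_PM_at) was dim, at 4.11 to 4.29, with a log2 fold change of 0.0085. Fbln2 encodes fibulin-2, a protein of basement membranes and of the elastin-microfibril interface. Its probe set was also dim, at 3.62 in KO1 and 3.78 in KO2, against 3.57 in WT1 and 3.60 in WT2, so the log2 fold change of 0.11 (SE 0.083, limma adjusted p = 0.842) is that of a signal among the nonspecific controls.

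Promoter sequence is shown for Fbln1, Fbln5 and Mfap2, since they differ in their pattern over the arrays (Fbln1 low in WT2 at its 2 brighter probe sets, Fbln5 low in KO1, Mfap2 level in the wild types). The stretches are the 250 bases upstream of the outermost start of each gene in RefSeq on GRCm38.p6, whose promoter table held entries for 6 of the 10 genes. Capitals mark CAGAC, the SMAD-binding element through which TGF-beta signals act, and GGGCGG, the GC box, each on either strand.
Fbln1, chr15:85205699-85205948, plus strand: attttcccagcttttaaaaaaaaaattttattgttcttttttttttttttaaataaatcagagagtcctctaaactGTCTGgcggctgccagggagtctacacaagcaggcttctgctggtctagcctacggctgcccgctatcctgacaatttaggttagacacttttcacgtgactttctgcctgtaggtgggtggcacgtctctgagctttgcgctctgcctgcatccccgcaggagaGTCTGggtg
Fbln5, chr12:101819120-101819369, minus strand: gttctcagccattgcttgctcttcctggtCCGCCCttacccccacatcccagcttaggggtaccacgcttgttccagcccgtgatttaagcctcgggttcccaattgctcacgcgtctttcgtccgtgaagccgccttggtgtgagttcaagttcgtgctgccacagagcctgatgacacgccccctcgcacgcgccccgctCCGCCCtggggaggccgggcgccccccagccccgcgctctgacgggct
Mfap2, chr4:141010174-141010423, plus strand: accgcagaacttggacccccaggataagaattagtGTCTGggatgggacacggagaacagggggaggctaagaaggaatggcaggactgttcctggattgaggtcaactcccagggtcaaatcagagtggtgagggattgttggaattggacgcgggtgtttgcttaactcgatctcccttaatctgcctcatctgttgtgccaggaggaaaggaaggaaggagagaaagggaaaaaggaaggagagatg
The Fbln1 stretch held 2 SMAD-binding elements and 0 GC boxes, the Fbln5 stretch 0 and 2, and the Mfap2 stretch 1 and 0. Among the same 250 bases of 32851 RefSeq promoters 42.2% held CAGAC and 32.7% held GGGCGG. The letters TATAAA, the TATA box, which 12.4% of promoters held, were found in none of the 3 stretches. The same was true of the AP-1 site TGACTCA, which 4.46% of promoters held. The counts depend on the start used: at the second RefSeq start of each gene the stretch held 2 SMAD-binding elements and 1 GC box for Fbln1, 2 and 0 for Fbln5, and 0 and 2 for Mfap2. These matches describe the sequence only and set no gene apart from another.

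Taken by array, WT2 was the lowest of the 4 in 9 of 14 probe sets, against 26.7% of all probe sets. The median deviation of the 9 genes from their own 4-array mean was 0.011 in KO1 and 0.138 in KO2, against 0.0063 in WT1 and -0.138 in WT2. KO1 and WT1 were thus level, and KO2 and WT2 were the outer arrays. The knockout arrays lay above both wild types in 6 probe sets (both of Mfap5, the brightest of Eln and Fbln1, and those of Mfap2 and Fbln2), against 17.8% of all probe sets. They lay below both in 1 probe set, the dimmest of Fbln1, against 18.6% of all. In 7 of 14 the wild-type arrays differed from each other by more than the genotype means did, which was so for 58.7% of all probe sets. With 1 array left out, the median over the 9 genes ran from 0.090 (without WT2) to 0.239 (without WT1), and 7 of 9 genes lay above 0 without WT2.

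The hair follicle split was set beside these values by comparing each knockout array with the wild-type array that resembled it in hair markers. Between the arrays high in these markers, KO1 lay above WT2 for 8 of 9 genes, with a median log2 difference of 0.18. By probe set it was 11 of 14, where 48.9% of all probe sets were above 0. Between the arrays low in them, KO2 lay above WT1 for 8 of 9 genes, with a median of 0.14. By probe set it was 10 of 14, against 50.5% of all probe sets. The 8 genes were the same in both cases, and Fbln5 was the exception in both. All probe sets included, 9 of 14 were higher in the knockout array of both pairs, against 25.4% of all probe sets. Mfap4 differed by 0.65 between KO1 and WT2 and by 0.24 between KO2 and WT1, Emilin1 by 0.28 and 0.19, and Mfap5 by 0.18 and 0.22. Fbn2 differed by 0.26 between KO1 and WT2 but by 0.0076 between KO2 and WT1. In the other direction, 7 of 14 probe sets had lower values in the hair-high array of both genotypes (KO1 below KO2 and WT2 below WT1), against 23.4% of all probe sets; they were those of Fbn2, Fbln5, Emilin1, Mfap4 and Mfap5. The pairwise values are differences between single arrays and have no replicate check. For each probe set their mean is the log2 fold change given above, so they are not separate from it.

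**Figure D3:**
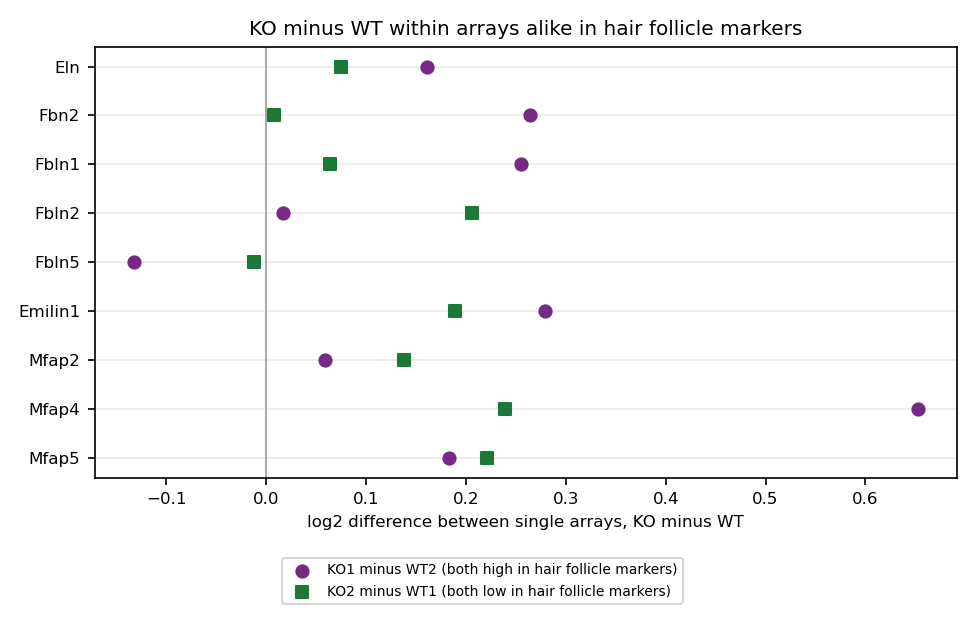
Log2 difference, knockout minus wild type, between the arrays that are both high (KO1 minus WT2, circles) or both low (KO2 minus WT1, squares) in hair follicle markers, for each of the 9 genes at its brightest probe set. Both symbols lie above 0 for 8 genes and below 0 for Fbln5, and the symbols of Mfap4 lie farthest to the right, at 0.65 and 0.24.

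Markers of the cells that make elastic fibres were measured beside the set. Of 8 fibroblast markers, all above the dim limit, 6 lay above 0 (median log2 fold change 0.08), and their summed linear signal was 24742 in KO1 and 25668 in KO2, against 24743 in WT1 and 22785 in WT2. Their median deviation was -0.018 in KO1 and 0.102 in KO2, against 0.026 in WT1 and -0.113 in WT2, with the same outer arrays as the elastic fibre genes. Their log2 fold changes ran from -0.18 for the receptor Pdgfra, with both knockouts below both wild types, and -0.08 for the collagen chain Col1a2 to 0.35 for the surface protein Thy1. By this median, the endothelial, white adipocyte and skeletal muscle lists also had KO2 as the highest and WT2 as the lowest array. Gene by gene, WT2 was the lowest array in 4 of 7 endothelial, 3 of 4 white adipocyte and 2 of 7 skeletal muscle markers. Endothelial markers (7 of 7 measured) were at -0.018 in KO1 and 0.146 in KO2, against -0.010 in WT1 and -0.143 in WT2. Their summed signal was 4479 in KO1 and 5171 in KO2, against 4554 in WT1 and 4248 in WT2. White adipocyte markers (4 of 6 measured) were at -0.022 in KO1 and 0.027 in KO2, against 0.018 in WT1 and -0.061 in WT2. This median hides Lep, with a log2 fold change of 2.19 and both knockouts above both wild types. Lep did not pass the threshold (limma adjusted p = 0.697), and its wild-type arrays differed by 1.52. Adipoq, Fabp4 and Pparg had log2 fold changes of -0.04, 0.02 and -0.10. Skeletal muscle markers (7 of 7, of which Myh1, Myh4 and Tnnt3 were dim) were at -0.127 in KO1 and 0.402 in KO2, against -0.023 in WT1 and -0.132 in WT2. Smooth muscle and pericyte markers (7 of 8 measured) had 2 of 7 above 0 and a median log2 fold change of -0.06. Their summed signal was 8980 in KO1 and 9513 in KO2, against 9295 in WT1 and 8524 in WT2. Luminal markers had 0 of 7 above 0 (median -0.24), and their summed signal of 2905 and 2788 in the knockouts lay below the 3575 and 3251 of the wild types. Basal markers had 0 of 6 above 0 (median -0.28), with sums of 796 and 741 in the knockouts and 915 and 1004 in the wild types. The thermogenic adipocyte markers had the largest median of the 14 lists, with 5 of 5 above 0 (median 0.82), both knockouts above both wild types in all 5, and sums of 13980 and 10618 in the knockouts, against 7559 and 7214 in the wild types. The part of these cell type differences in the values of the elastic fibre genes was not tested.

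**Figure D4:**
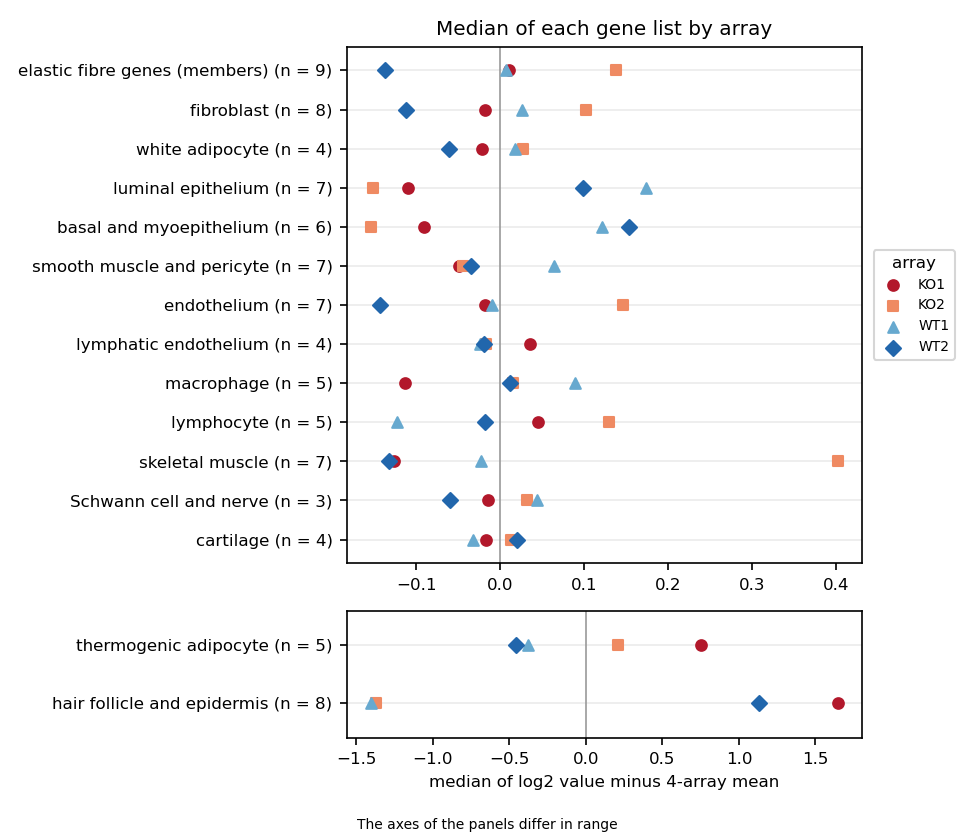
Median over the genes of each list of the log2 value minus that gene's mean of the 4 arrays, for the elastic fibre genes and 14 cell type marker lists, in each array; the lower panel has a wider axis for the thermogenic adipocyte and hair follicle lists. By this median the elastic fibre, fibroblast, endothelial, white adipocyte and skeletal muscle lists have KO2 as the highest and WT2 as the lowest array. Single genes differ, with WT2 the lowest array in only 2 of 7 skeletal muscle markers. Hair follicle markers are high in KO1 and WT2.

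Of 61 other genes of the elastic fibre pathway 57 were measured, and 0 passed the threshold in either direction (limma, adjusted over all probe sets). At an unadjusted p under 0.05 there were 13 of 57, against 7.36% of all genes at their brightest probe set. Of the 57 genes 37 lay above 0, against 48.8% of all genes, with a median of 0.035. As for the member set, these counts describe the genes and do not test them. The lists were chosen with earlier results of these data known. The members named below are those of smallest p in each list, so their values are the extremes.

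Of 5 crosslinking enzymes measured, 4 were above 0, with a median log2 fold change of 0.12, and 0 passed. Loxl1, the lysyl oxidase tied to elastin in mice, had log2 values of 11.10 in KO1 and 11.18 in KO2, against 10.99 in WT1 and 10.77 in WT2, with a log2 fold change of 0.26 (SE 0.095, limma adjusted p = 0.744). Lox, the founding member of the family, had 9.41 in KO1 and 9.44 in KO2, against 9.32 in WT1 and 9.15 in WT2 (0.19, SE 0.085, limma adjusted p = 0.772). At these brightest probe sets of both genes the knockouts were above the wild types and WT2 was lowest, as in Mfap5. The second Loxl1 probe set had 0.19, again with the knockouts above, but WT1 was lowest (6.88, against 6.96 in WT2). The other Lox probe sets had 0.19, with WT2 lowest, and 0.08 at a dim one, with WT1 lowest. Loxl4 was dim, and its 2 probe sets had -0.14 and 0.15.

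Among relatives of the fibulins, emilins and multimerins, 4 of 7 measured were above 0 and 0 passed. Emilin2, a second emilin, had a log2 fold change of 0.18, and Hmcn1, the very large fibulin relative hemicentin-1, had -0.23. Fbln7, fibulin-7, had 0.20 from a signal of 4.38 to 4.62, next to the dim limit. Of 4 latent TGF-beta binding proteins, which hold the growth factor on microfibrils, 2 were above 0 and 0 passed. Ltbp4, which also assists fibulin-5 in placing elastin, had 8.19 in KO1 and 8.41 in KO2, against 7.93 in WT1 and 8.07 in WT2 (0.30, SE 0.104, limma adjusted p = 0.733). Ltbp2 had -0.09 and Ltbp3 0.08 at its brightest probe set, with -0.11 and 0.07 at the others. The ADAMTS and ADAMTS-like proteins, secreted proteins of which several bind fibrillin, were evenly split, with 4 of 8 above 0 and 0 past the threshold. Adamtsl1 had 0.23, Adamts10 had 0.20 and Adamtsl4 had 0.14.

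Growth factors that microfibrils hold had 4 of 7 above 0 and 0 past the threshold. Bmp2, a bone morphogenetic protein, had a log2 fold change of -0.24, Tgfb1 had 0.21 and Bmp7 had 0.17, with 0.35 and 0.03 at the other probe sets of Bmp7. The integrin receptors had 5 of 7 above 0 and 0 past the threshold. Itgb5, which pairs with the alpha-v chain, had 9.31 in KO1 and 9.53 in KO2, against 9.19 in WT1 and 9.16 in WT2 (0.25, SE 0.094, limma adjusted p = 0.746). Itgb3, another partner of that chain, had 0.19 at its brightest and -0.04 at its dim second probe set, and Itga5, the fibronectin receptor chain, had 0.34 from a signal of 3.85 to 4.41.

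Proteases able to cut elastin went both ways, with 6 of 10 above 0 and 0 past the threshold. Elane, neutrophil elastase, had log2 values of 5.86 in KO1 and 5.96 in KO2, against 6.14 in WT1 and 6.43 in WT2 (-0.37, SE 0.115, limma adjusted p = 0.721). Ctss, the macrophage protease cathepsin S, had -0.27, and Cela1, a pancreatic-type elastase, had 0.24. Of 5 macrophage markers 0 lay above 0, with a median of -0.07 beside that of Ctss, and the link was not tested. The last list, of proteoglycans and of factors for copper supply and secretion, had 8 of 9 above 0 but a median of 0.038 and 0 past the threshold. Atp6v0a2, a proton pump subunit of the Golgi, had 0.19 (0.18 and 0.07 at its other probe sets), Pcolce, an enhancer of procollagen processing, had 0.19, and the collagen-binding proteoglycan decorin (Dcn) had 0.08.

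Among genes outside the set, those whose values over the 4 arrays lay closest to those of Eln were not matrix genes. Likeness was the mean absolute difference between log2 values at the brightest probe set, after subtracting each gene's own 4-array mean. It was ranked among 5949 genes with a mean log2 value of at least 6 that varied at least as much as Eln. The other members of the set were left out beforehand, so they could not rank. The 5 closest were Pi4k2a, a phosphatidylinositol kinase (0.0054), Rhot1, a mitochondrial transport GTPase (0.0060), Ndufs4 and Ndufc1, subunits of respiratory complex I (0.0090 and 0.0095), and Gbf1, an exchange factor of the Golgi (0.0098). With 4 arrays and a range of 0.161 for Eln, many genes come close by this measure.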

How the data were processed

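Per the labels' protocols, biotin-labelled RNA was made from 200 ng of total RNA per sample and hybridized to Affymetrix 3′ arrays (4 arrays, 2 per genotype). The authors deposited 1 log2 value per probe set and array; the submitters' processing notes name RMA and the affy package, with no version or setting. RMA equalises the arrays' distributions and compresses the changes of dim genes, and the number of arrays limits the precision. Of 45141 probe sets 104 were array controls, 28898 had 1 gene symbol, 551 had several and 15588 were not listed. Gene IDs of 99.3% of the named probe sets matched RefSeq (GRCm38.p6), with 0 symbols changed.

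Knockout was compared with wild type with limma 3.58.1 (R 4.3.3; lmFit, then eBayes) on all 45037 other probe sets, two-sided, without covariates or filter (2 residual and 3.43 prior degrees of freedom), with Benjamini-Hochberg adjustment over all of them and a threshold of 0.05. The fit was tested on simulated data, with variances drawn from its own fitted prior and independent errors. Such data hold no effect shared within an array, such as the hair follicle split, so the test does not cover it. The smallest p that exact permutation of 2 against 2 arrays allows is 0.333. The members, gene lists and tests were chosen with earlier results of these data known. Named were all members and, per list, genes past the threshold or else the 3 of smallest p. The labels do not state that replicate numbers pair the arrays. The correlation of same-numbered deviations from the genotype means was -0.295. It cannot settle the pairing, since hair follicle markers were high in KO1 and WT2. Alternatives were 1 probe set per gene, a gene's averaged probe sets, quantile normalization, median centring, a mean log2 value of at least 5, eBayes with robust variances or with a trend on intensity, a replicate block, and each array left out.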

Additional observations from a re-analysis of the deposited data

How the results depend on the processing

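None of the 14 probe sets passed the threshold under any alternative run (limma, the alternatives listed above and 1 added after the data were seen), and neither did any of the 57 other pathway genes. Of 477 recomputed fold changes of named genes 472 kept their direction. Part of that count was fixed in advance, since some runs cannot change the fold change of a probe set. These are the robust and trend variances, the run with 1 probe set per gene and the filter on a mean log2 value of at least 5. In this balanced design the replicate block and the crossed pairing named below cannot change it either. Median centring only shifts all fold changes by the same amount. The median over the member genes was 0.111 to 0.147 under the alternatives that keep all arrays. The highest value was with the filter on a mean log2 value of at least 5, which left out Fbln2. With 1 array left out, the median over the 9 genes was 0.090 (without WT2) to 0.239 (without WT1). The direction turned for Fbn2 (-0.088 to 0.359 with 1 array left out), the second probe set of Fbln1 (-0.040 to 0.288) and the dim second probe set of Fbln5 (-0.080 to 0.097), in each case without WT2, and for the last also without KO2; the other extreme was without WT1. Loxl4 was at 0.0026 with the mean of its 2 probe sets, which differ in sign. Mfap4 ran from 0.090 to 0.802 with 1 array left out. When a genotype is left with 1 array, that array is assumed to vary like the other genotype. With the replicate number as a block, 0 of the 14 probe sets passed, and the median stayed at 0.136 because the design is balanced. Over all probe sets 0 passed, against 2 without the block. At an unadjusted p under 0.05 there were 3131 with the block and 2994 without it. A crossed pairing (KO1 with WT2), added after the data were seen, called 0 probe sets, with 2558 at an unadjusted p under 0.05. Both Fbln2 and the second Fbln5 probe set lay under the dim limit, which limits what their values can show.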
